A study of Mus musculus with 24 samples.

Results

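Genes tied to bone morphogenetic protein (BMP) signalling were followed in LLC1, a mouse Lewis lung carcinoma line, through 6 h and 24 h of chemotherapy, MEK inhibition or both. The 8 are the inhibitors of DNA binding Id1, Id2, Id3 and Id4, the helix-loop-helix factor Atoh8, the pathway inhibitors Smad6 and Bambi, and the ligand gene Bmp4, 8 of the 28328 genes with a value. They were selected on their pathway and with their TPM levels in these same libraries already known, so their levels and differences are given as a description, with no test. The lists of other genes tested below were also chosen with earlier results of these data known. Their p-values and counts do not take that choice into account. Untreated cells received 0.1% DMSO alone. The chemotherapy group received cisplatin at 2.5 µM, which crosslinks DNA, with pemetrexed at 2.5 µM, which blocks folate-dependent enzymes of nucleotide synthesis. The trametinib group received 10 nM of this inhibitor of the kinase MEK, which activates ERK, and the combination group received all 3 drugs. Each treatment was sampled at both times, giving 8 groups of 3 mRNA libraries, 24 in all, from a single cultured line. The labels do not say whether the 3 libraries of a group came from separate cultures, so errors and p-values here cover library-to-library spread alone, and that spread could be technical.

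BMP ligands bind paired type I and type II receptor kinases, which phosphorylate SMAD1, SMAD5 and SMAD9. These join SMAD4 and bind DNA near target genes, among which the ID genes are classical direct targets. ID proteins have a helix-loop-helix domain but no basic region, so they hold E proteins such as TCF3, TCF4 and TCF12 in dimers that cannot bind the E-box, and so restrain differentiation in many cell types. SMAD6, SMAD7 and the pseudoreceptor BAMBI are inhibitors of the pathway, and genes for them are often induced by it.

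The start regions of the 2 ID genes whose window held the GC-rich element bound by SMAD1 and SMAD5, of Atoh8, which held E-boxes, and of Smad6, which held the palindromic SMAD box, are shown 5′ to 3′ on the gene's own strand, because these are the letters through which SMADs and helix-loop-helix factors are known to act. They come from RefSeq on GRCm38.p6, where 6 of the 8 genes had a window of 250 bases before to 50 after the start. Id1 and Bambi had no window, so neither was searched for these motifs. Capitals mark GGCGCC (GC-rich element), GTCTAGAC (SMAD box) and CANNTG (E-box).
Id2, chr12:25096254-25096342, minus strand: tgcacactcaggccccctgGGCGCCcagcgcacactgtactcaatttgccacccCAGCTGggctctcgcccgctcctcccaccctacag
Id4, chr13:48260866-48261115, plus strand: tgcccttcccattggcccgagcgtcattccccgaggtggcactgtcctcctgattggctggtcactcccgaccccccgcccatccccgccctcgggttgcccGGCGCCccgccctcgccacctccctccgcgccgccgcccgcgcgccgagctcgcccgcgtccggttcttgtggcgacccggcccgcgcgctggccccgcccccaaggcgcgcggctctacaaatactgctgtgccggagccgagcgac
Atoh8, chr6:72235578-72235827, minus strand: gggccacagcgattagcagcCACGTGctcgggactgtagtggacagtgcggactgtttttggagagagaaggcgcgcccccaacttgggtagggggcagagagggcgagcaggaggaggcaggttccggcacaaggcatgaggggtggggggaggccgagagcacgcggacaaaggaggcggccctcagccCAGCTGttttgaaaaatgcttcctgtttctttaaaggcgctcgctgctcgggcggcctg
Smad6, chr9:64022050-64022069, minus strand: caaagtGTCTAGACtggcat
The Id2 stretch lies in an intron of the longer annotated transcript Id2-202, the Id4 stretch lies opposite introns of the antisense RNA A330033J07Rik and of Gm49291, the Atoh8 stretch lies outside any gene of the annotation (GENCODE M21), and the Smad6 stretch runs from before the gene into its first exon.

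Each of these motifs was searched on both strands, with positions counted from -1 for the base before the RefSeq start. GGCGCC began at -231 in Id2 and at -148 in Id4, and 11.9% of 32851 windows of this length held it. GTCTAGAC began at -4 in Smad6, across the start, and 0.213% of all windows held it. The composite BMP response element, in which GGCGCC is followed at a fixed distance by the left side of the SMAD box, was in none of the 6 windows and in 0.0731% of all windows. E-boxes began at -230 and -59 in Atoh8, at -196 in Id2, at -188, -177 and -123 in Bmp4 and at 8 after the start in Smad6. They were in none of these letters for Id3 and Id4, while 72.3% of all windows held one. A match is a run of letters and was not measured as a binding site here. Sequence outside these windows was not searched, so an absence holds for the windows alone.

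The deposited values are TPM, each transcript's share of all transcripts after division by its length, so levels can be compared between genes but they keep no record of read depth. A library held 11242 to 11851 genes at 1 TPM or more. The fit took the 12581 genes that were at 1 TPM or more in 3 or more libraries, among them 6 of the 8 genes described here (Smad6 and Bambi stayed below). Differences are in log2(TPM + 1) with the standard error of limma's fit (n = 3 libraries per group), a scale on which the pseudocount of 1 understates the change of low genes. Known readouts of the drugs moved with the labels. Dusp6, an ERK-induced phosphatase gene, fell by 1.57 on this scale with trametinib at 6 h (adjusted p = 1.61e-08, limma), and Cdkn1a, a p53 target, rose by 1.22 with chemotherapy at 6 h (adjusted p = 4.49e-07, limma). Of the lung epithelium markers, Epcam, Cdh1, Nkx2-1, Sftpc and Scgb1a1 (5 of 7) stayed below 1 TPM in every library, while the keratins Krt8 and Krt18 were abundant. Macrophage markers were below 1 TPM in every library for 5 of 6 genes, with Adgre1 listed at 0, and endothelial markers for 5 of 6. The sixth macrophage marker, Cd68, ranged over 3.68 to 39.3 TPM, and the list summed to 33.5 to 39.6 TPM with chemotherapy at 24 h against 10.4 to 14.8 in untreated cells and 13.2 to 14.8 with the combination. Its part in the differences of that chemotherapy group was not tested. Of the fibroblast markers, only 1 of 5 stayed below 1 TPM in every library. At 6 h and 24 h their summed TPM ranged over 2.48 to 2.75 and 5.34 to 6.14 in untreated cells. It was 3.36 to 3.57 and 7.88 to 8.64 with chemotherapy, and 7.12 to 9.75 and 22.7 to 23.3 with trametinib. With the combination it was 8.96 to 11.5 and 37.6 to 40.8. This list was higher with trametinib, as were the genes described next, and its part in those values was not tested.

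Of the ligand genes, Bmp4 (ENSMUSG00000021835.15, chromosome 14, 46383520 to 46390669, minus strand) was low in untreated cells and, at each time, higher in every library that received trametinib. At 6 h Bmp4 stood at 0.211, 0.128 and 0.0802 TPM in untreated cells, 0.233, 0.17 and 0.215 with chemotherapy, 0.63, 0.777 and 0.737 with trametinib and 0.572, 0.729 and 0.974 with the combination. The untreated and chemotherapy ranges overlapped, and all 6 libraries with trametinib lay above both. At 24 h it stood at 0.629, 0.483 and 0.55 TPM in untreated cells, 0.525, 0.528 and 0.569 with chemotherapy, 2.54, 2.42 and 2.57 with trametinib and 1.87, 2.74 and 2.24 with the combination. The same separation held at the later time, on a higher base: untreated cells at 24 h lay above all untreated libraries of 6 h, by a ratio of means of 3.96. The difference of trametinib from untreated was 0.59 ± 0.0923 at 6 h and 1.18 ± 0.0923 at 24 h, and that of the combination was 0.62 ± 0.0923 and 1.07 ± 0.0923. Chemotherapy differed from untreated by 0.08 ± 0.0923 and -0.01 ± 0.0923. For so low a gene the size rests on the pseudocount: with 0.1 the trametinib values were 1.80 and 2.00. The ratios of mean TPM to untreated cells were 5.11 at 6 h and 4.53 at 24 h with trametinib, and 5.42 and 4.12 with the combination, so by the ratio the effect was not larger at 24 h.

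The makeup of Bmp4 by transcript also differed between groups. Transcript Bmp4-201, which is protein-coding, carried all of the gene's TPM in untreated cells at 6 h and with chemotherapy at both times, where Bmp4-202, another coding transcript, was listed at 0 in each library. Bmp4-202 made up a mean of 24.5% of Bmp4 TPM with trametinib at 6 h (11.1% to 42.3%) and 42.4% with the combination (38.1% to 45.7%). At 24 h its share was 62.7% with trametinib (46.1% to 75.2%), 32.1% with the combination (8.06% to 54.4%) and 14.2% in untreated cells (0.0% to 23.7%). The shares spread widely within groups, and an estimate of 0 at this level can be a failed assignment between transcripts that share sequence. Id2, Id4 and Atoh8 had a single transcript each among those summed here, and the main transcript carried 88.1% to 97.2% of Id1 and 86.2% to 96.9% of Id3. Smad6-202, not labelled as coding, made up a mean of 34.4% of Smad6 TPM with the combination at 24 h (6.11% to 65.9%). Its mean share was 9.09% and 9.44% with trametinib at 6 h and 24 h, 16.3% with chemotherapy at 6 h and 0 elsewhere. The coding Smad6-201 stood at 0.223 to 0.391 TPM with the combination at 24 h, against 0.0682 to 0.0787 in untreated cells.

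Bmp2, the ligand closest to BMP4, was the only other BMP ligand gene of 13 listed to enter the test. It reached the filter of 1 TPM only in libraries with trametinib. Its entry thus depended on the rise then tested, and its p-values are to be read with that limit. It stood at 0.106, 0.175 and 0.106 TPM in untreated cells at 6 h and at 0.954, 1.13 and 1.22 TPM with trametinib. At 24 h the untreated libraries stood at 0.303, 0.301 and 0.291 TPM and those with trametinib at 2.22, 2.56 and 2.53 TPM. Bmp2 thus rose with the MEK inhibitor at both times, by 0.90 ± 0.0697 at 6 h (adjusted p = 2.73e-09, limma) and 1.40 ± 0.0697 at 24 h (adjusted p = 2.41e-12, limma). The combination raised it by 0.79 ± 0.0697 (adjusted p = 9.7e-09, limma) and 1.16 ± 0.0697 (adjusted p = 2.77e-11, limma). With chemotherapy the difference was 0.05 at 6 h (adjusted p = 0.634, limma) and -0.11 at 24 h (adjusted p = 0.188, limma). The other ligand genes Bmp3, Bmp5, Bmp6, Bmp7, Bmp8a, Bmp8b, Bmp10, Bmp15, Gdf2, Gdf5, Gdf6 and Gdf7 did not enter the test, the highest being Bmp6 at up to 0.684 TPM.

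Receptors for these ligands were present throughout. The type I receptor genes Bmpr1a (15.9 to 37.5 TPM over the 24 libraries) and Acvr1 (16.2 to 29.4 TPM), the type II receptor gene Bmpr2 (5.38 to 14.2 TPM) and the co-receptor gene Rgmb (23.7 to 53 TPM) were all above the filter, while Bmpr1b reached at most 0.299 TPM. Of the 10 receptor and co-receptor genes tested, 7 rose and 0 fell with trametinib at 6 h (median 0.256, against 0.105 over all tested genes), where 35.9% of all tested genes rose and 18.9% fell. At 24 h 8 rose and 1, Acvr2b, fell (median 0.379, against 0.036), where 32.4% of all tested genes rose and 26.3% fell. At an unadjusted p under 0.05 the count of falls at 6 h was 0 too. Tgfbr3 (22.5 to 59.0 TPM), Rgma (0.332 to 2.25 TPM) and Acvr2b (0.887 to 4.14 TPM) complete the tested list. Eng, the co-receptor endoglin (17.1 to 36.8 TPM), rose in all 6 comparisons with untreated cells: by 0.26 with chemotherapy at 6 h and 0.97 at 24 h, by 0.28 and 0.83 with trametinib, and by 0.40 and 0.95 with the combination (adjusted p of 0.00351 or less, limma). At 24 h the combination stood 0.85 below the sum of its single effects for Eng (a difference of -0.85, adjusted p = 5.88e-07, limma). Rgmb rose by 0.37 with trametinib at 6 h (adjusted p = 1.23e-05, limma) and by 0.71 at 24 h (adjusted p = 1.42e-09, limma). Its call with chemotherapy at 6 h, 0.17, was lost when any of 5 libraries was left out, untreated replicates 1 and 2 and each chemotherapy replicate, with adjusted p of 0.0527 to 0.15 (limma).

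Acvrl1, the type I receptor ALK1 of endothelium, had its highest values under chemotherapy. At 24 h Acvrl1 stood at 1.45, 1.51 and 1.85 TPM with chemotherapy against 0.086, 0.0577 and 0.0389 TPM in untreated cells, a rise of 1.29 ± 0.134 (adjusted p = 9.66e-08, limma). Only these chemotherapy libraries reached 1 TPM, so Acvrl1 entered the test through the group then called higher. The combination minus chemotherapy was -0.81 (adjusted p = 4.27e-05, limma). At 6 h the 3 chemotherapy libraries spread from 0.0829 to 0.802 TPM. The call there, 0.41, ended without untreated replicate 1, 2 or 3 or without chemotherapy replicate 1 or 3, and without the last of these the value was 0.23 (adjusted p = 0.189, limma). The call with trametinib at 24 h, 0.38, ended without trametinib replicate 1 or 2 (adjusted p = 0.0511 and 0.0749, limma). Summed endothelial markers, of which only Pecam1 passed 1 TPM, were also highest with chemotherapy at 24 h, at 7.21 to 13.0 TPM against 2.69 to 3.70 in untreated cells, and Cdh5 and Emcn stayed at or near 0; the part of that list in Acvrl1 was not tested. Acvr2a, a type II receptor gene (4.68 to 13.9 TPM), rose by 0.48 with trametinib and 0.75 with the combination at 24 h (adjusted p = 1.24e-05 and 3.01e-08, limma). Its smaller calls of 0.23 with trametinib and 0.20 with the combination at 6 h fell to 0.13 and 0.07 when libraries were rescaled by a median ratio (adjusted p = 0.102 and 0.374, limma), and each also ended without untreated replicate 3 (adjusted p = 0.0525 and 0.0999, limma) or treated replicate 3 (0.0677 and 0.106), and the second without untreated replicate 2 or combination replicate 1 (0.0572 and 0.0696).

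The signal carriers were expressed throughout. Smad4 (47.1 to 75.6 TPM), Smad5 (18.1 to 31.3 TPM) and Smad1 (10.1 to 15.1 TPM) passed the filter, as did the ubiquitin ligase genes Smurf1 (18.1 to 29.1 TPM) and Smurf2 (14.3 to 22 TPM). Of 7 SMAD and ubiquitin ligase genes 1 rose and 2 fell with trametinib at 6 h (35.9% and 18.9% of all tested genes), and 2 rose and 2 fell at 24 h (32.4% and 26.3%). Smad9, the least abundant of the 3 SMAD genes that BMP receptors act on, stood at 0.293, 0.264 and 0.381 TPM in untreated cells at 6 h, 0.664, 0.631 and 0.937 TPM with trametinib and 1.19, 1.07 and 1.29 TPM with the combination. It rose by 0.41 and 0.73 in these (adjusted p = 0.000233 and 1.59e-07, limma) and by 0.33 and 0.55 at 24 h (adjusted p = 0.00126 and 5.54e-06, limma). Only the combination libraries of 6 h reached 1 TPM for Smad9, so it entered the test through a group then called higher. Smad5 rose by 0.57 with trametinib at 24 h (adjusted p = 2.28e-06, limma), and Smad1 fell by 0.32 (adjusted p = 5.45e-05, limma). At 6 h the calls for Smad1, -0.14 with trametinib and 0.14 with the combination, were at the edge of the threshold. They ended under 3 and 4 of the alternative settings, among them the fit on the 6 h libraries alone (adjusted p = 0.109 and 0.102, limma), and without untreated replicate 1, 2 or 3. Without trametinib replicate 1 the first was -0.08 (adjusted p = 0.239, limma), and after rescaling the second was 0.0 (adjusted p = 0.995, limma).

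The pathway's inhibitors differed from one another. Smad6 (ENSMUSG00000036867.7, chromosome 9, 63953076 to 64022059, minus strand) stood at 0.0467, 0.0405 and 0.161 TPM in untreated cells at 6 h, 0.146, 0.157 and 0.0489 with chemotherapy, 0.834, 0.412 and 0.531 with trametinib and 0.33, 0.297 and 0.339 with the combination. All 6 libraries with the MEK inhibitor lay above the 6 without it. At 24 h the values were 0.0734, 0.0787 and 0.0682 in untreated cells, 0.0394, 0.0363 and 0.0577 with chemotherapy, 0.426, 0.42 and 0.65 with trametinib and 0.653, 0.47 and 0.416 with the combination. The separation was the same at this time, with chemotherapy below untreated in each library, but no Smad6 value reached 1 TPM. In a fit with no filter the differences with trametinib were 0.55 ± 0.0793 at 6 h and 0.48 ± 0.0793 at 24 h. Bambi (ENSMUSG00000024232.2, chromosome 18, 3507923 to 3516404, plus strand) stayed between 0.00574 and 0.0952 TPM in all 24 libraries. Its groups overlapped in every comparison with untreated cells but the combination at 24 h, where 0.0147, 0.0101 and 0.025 TPM stood below 0.03, 0.0619 and 0.0261. At such levels a share of transcripts rests on very few reads, so no difference in Bambi is read from these values. The Smad6 values of untreated and chemotherapy cells at 24 h lay in this same range, so no difference between those groups is read either.

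Smad7, the inhibitor that the BMP and TGF-beta branches share, was highest in cells given chemotherapy for 24 h. Smad7 stood at 4.52, 4.02 and 3.21 TPM in untreated cells at 24 h, 20.6, 16.4 and 19.5 TPM with chemotherapy, 5.18, 3.66 and 4.45 TPM with trametinib and 14.2, 13.4 and 13.1 TPM with the combination. Every library with chemotherapy drugs lay above every library without them. It rose by 2.01 ± 0.127 with chemotherapy (adjusted p = 9.84e-11, limma) and by 1.57 ± 0.127 with the combination (adjusted p = 2.06e-09, limma). The combination minus chemotherapy was -0.44 (adjusted p = 0.00658, limma). With trametinib alone the difference was -0.43 at 6 h (adjusted p = 0.00733, limma), which lost its call when untreated replicate 2 was left out (-0.33, adjusted p = 0.0526, limma), and 0.14 at 24 h (adjusted p = 0.353, limma).

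Id2 stood far higher in every library with the MEK inhibitor than in those without it. Id2 (ENSMUSG00000020644.9, chromosome 12, 25093799 to 25097140, minus strand) stood at 6 h at 29.1, 31.0 and 33.8 TPM in untreated cells, 30.2, 29.0 and 30.1 with chemotherapy, 107, 121 and 141 with trametinib and 132, 127 and 125 with the combination. Chemotherapy and untreated libraries overlapped, and all 6 with the MEK inhibitor stood above 100 TPM. At 24 h the values were 18.8, 18.7 and 17.1 in untreated cells, 36.4, 36.5 and 35.3 with chemotherapy, 138, 130 and 116 with trametinib and 166, 208 and 196 with the combination. The 4 groups of 24 h did not overlap, in the order untreated, chemotherapy, trametinib, combination. The ratio of mean TPM to untreated cells was 3.93 with trametinib and 4.09 with the combination at 6 h, and 7.03 and 10.4 at 24 h. On the log2 scale the differences were 1.94, 2.00, 2.74 and 3.31, each ± 0.0892. Chemotherapy differed by -0.07 ± 0.0892 at 6 h and 0.95 ± 0.0892 at 24 h.

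Id1 (ENSMUSG00000042745.9, chromosome 2, 152736251 to 152737410, plus strand) stood at 14.2, 14.1 and 16.9 TPM in untreated cells at 6 h, 50.7, 14.8 and 16.1 with chemotherapy, 38.9, 32.6 and 31.2 with trametinib and 32.5, 42.4 and 32.8 with the combination. Trametinib and the combination lay above untreated cells, while 2 of 3 chemotherapy libraries lay among them and replicate 1 stood above every other library in the series. After 24 h the values were 8.47, 10.1 and 10.8 in untreated cells, 24.3, 14.6 and 19.1 with chemotherapy, 19.6, 21.8 and 16.8 with trametinib and 31.8, 37.6 and 41.7 with the combination. Each single treatment lay above untreated cells, the 2 single treatments overlapped, and the combination lay above all. The difference was 1.13 ± 0.296 with trametinib and 1.19 ± 0.296 with the combination at 6 h, and 0.89 ± 0.296 with chemotherapy, 0.92 ± 0.296 with trametinib and 1.81 ± 0.296 with the combination at 24 h. With chemotherapy at 6 h it was 0.59 ± 0.296, and 0.04 without replicate 1 of that group and 0.89 without replicate 2.

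Id3 was the most abundant of the 4 ID genes in untreated cells. Id3 (ENSMUSG00000007872.3, chromosome 4, 136143497 to 136145755, plus strand) stood at 6 h at 52.9, 48.8 and 69.6 TPM in untreated cells, 93.2, 51.8 and 51.1 with chemotherapy, 179, 144 and 152 with trametinib and 115, 159 and 171 with the combination. As for Id1, chemotherapy replicate 1 stood apart from its group, and all libraries with the MEK inhibitor lay above all without it. By 24 h they were 27.7, 29.9 and 37.7 in untreated cells, 59.8, 38.3 and 48.2 with chemotherapy, 105, 125 and 89.0 with trametinib and 106, 157 and 171 with the combination. Chemotherapy lay just above untreated cells, and trametinib and the combination overlapped each other well above both. The differences with trametinib were 1.46 ± 0.234 at 6 h and 1.71 ± 0.234 at 24 h, and with the combination 1.36 ± 0.234 and 2.13 ± 0.234. Chemotherapy differed by 0.15 ± 0.234 and 0.59 ± 0.234.

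Within groups, the libraries ran in much the same order for Id1 and Id3, an observation made after their values were seen. The library with the most Id3 in its group was also the one with the most Id1 in 7 of the 8 groups, the most Junb in 8 and the most of the E protein gene Tcf3 in 8. For Twist1 this held in 8 groups too and for Twist2 in 6. For Id2 it held in 2 groups, for Id4 in 2, for Bmp4 in 2 and for Atoh8 in 4. Among the other 12580 tested genes, 382 (3.04%) shared Id3's highest library in all 8 groups. The share was 6.92% for at least 7 groups, 32.5% for at least 4 and 78.5% for at least 2. Chemotherapy replicate 1 of 6 h, highest of its group in Id1 and Id3, was also highest in Junb (39.0 TPM, against 9.78 and 10.1) and Tcf3 (93.7 TPM, against 56.3 and 56.5). The part of this shared order in the differences of Id1 and Id3 between treatments was not tested.

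Id4 is far less abundant. Id4 (ENSMUSG00000021379.2, chromosome 13, 48261228 to 48266026, plus strand) stood at 6 h at 0.111, 0.23 and 0.224 TPM in untreated cells, 0.23, 0.258 and 0.167 with chemotherapy, 0.779, 1.11 and 1.94 with trametinib and 1.86, 2.12 and 1.59 with the combination. The MEK inhibitor separated the libraries again, with a wide spread among the 3 of trametinib. By 24 h they were 0.139, 0.0746 and 0.0863 in untreated cells, 0.224, 0.224 and 0.146 with chemotherapy, 0.269, 0.336 and 0.263 with trametinib and 0.958, 1.35 and 1.1 with the combination. With trametinib alone Id4 lay above untreated cells by a ratio of means of 2.89, against 6.77 at 6 h, and the combination lay above every other group of 24 h. The differences were 0.91 ± 0.128 and 1.26 ± 0.128 with trametinib and the combination at 6 h, and 0.23 ± 0.128 and 0.95 ± 0.128 at 24 h. The gene overlaps annotated antisense RNA, and no source used here says whether the quantification used read strand, so Id4's low values are uncertain. Without trametinib replicate 1 the difference at 6 h was 1.07, and without replicate 3 it was 0.71.

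Atoh8, a helix-loop-helix factor of the atonal family and a known BMP target in several cell types, was nearly silent in untreated cells. Atoh8 (ENSMUSG00000037621.8, chromosome 6, 72206177 to 72235577, minus strand) stood at 6 h at 0.586, 0.559 and 0.607 TPM in untreated cells, 0.328, 0.175 and 0.327 with chemotherapy, 6.30, 5.36 and 5.68 with trametinib and 5.16, 5.86 and 5.42 with the combination. Chemotherapy lay below untreated cells, and all 6 libraries with the MEK inhibitor stood above 5 TPM. After 24 h they were 0.0135, 0.0759 and 0.0877 in untreated cells, 0.406, 0.478 and 0.42 with chemotherapy, 6.57, 5.56 and 5.73 with trametinib and 8.3, 9.27 and 8.18 with the combination. The groups of 24 h did not overlap, and chemotherapy now lay above untreated cells. The ratio of means to untreated cells was 9.90 with trametinib and 9.38 with the combination at 6 h. At 24 h it was 101 and 145, over a base of 0.059 TPM that was itself 0.101 of the level at 6 h. The log2 differences were 2.1, 2.03, 2.71 and 3.18, each ± 0.0754, and with a pseudocount of 0.1 they were 3.10, 3.03, 5.28 and 5.80.

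**Figure D1:**
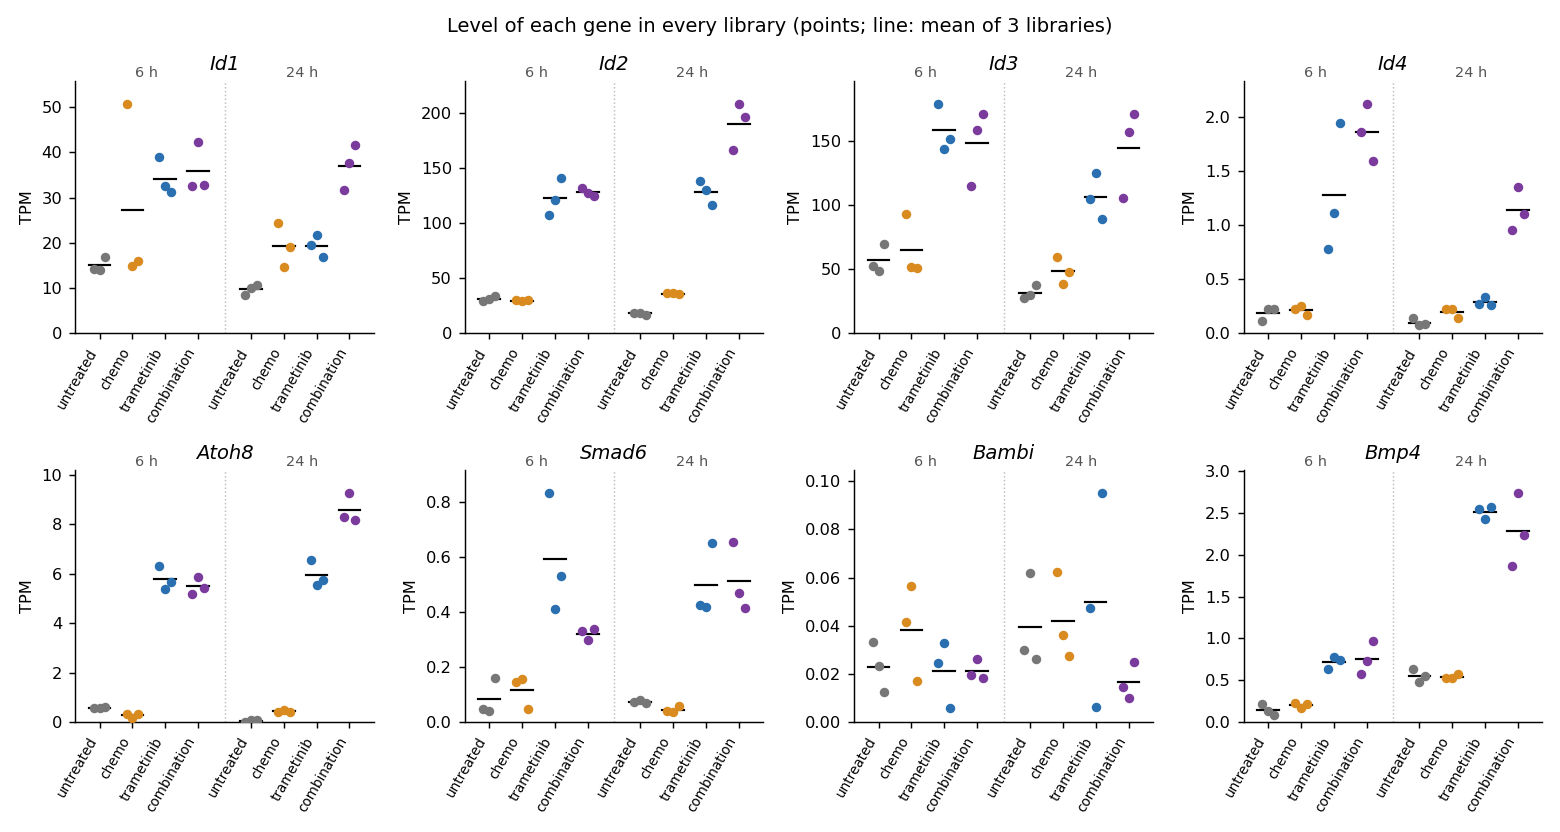
TPM of each of the 8 genes (vertical axes, linear, from 0, each gene on its own scale) in the 24 libraries, as 3 points per group with a line at the group mean, for untreated, chemotherapy, trametinib and combination cells at 6 h (left of each panel) and 24 h (right). Trametinib and combination points stand above the untreated points of the same time for every gene but Bambi, and 1 chemotherapy library of 6 h stands apart in Id1 (50.7 TPM) and Id3 (93.2 TPM).

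Counted over all 8 genes, all 3 libraries lay above all 3 untreated libraries for 7 genes with trametinib at 6 h, where 39.6% of tested genes did so, and for 7 with the combination, where 41.7% did. At 24 h the count was 7 with trametinib (35.5% of tested genes), 7 with the combination (42.6%) and 5 with chemotherapy (38%). At 24 h Smad6 with chemotherapy (27.3% of tested genes) and Bambi with the combination (26.9%) lay wholly below. With chemotherapy at 6 h it was 0 (19.3%), and 1 gene, Atoh8, lay below untreated cells in all 3 (19.6% of tested genes). Since the genes were chosen with these values known, nothing is read from the counts. The median difference of the 6 genes in the fit was 1.30 with trametinib at 6 h against 0.105 over all tested genes, 1.31 against 0.109 with the combination at 6 h, 1.44 against 0.0357 with trametinib at 24 h and 1.97 against 0.103 with the combination at 24 h. With chemotherapy it was 0.0598 against 0.00949 at 6 h and 0.515 against 0.0567 at 24 h. Id4, Atoh8 and Bmp4 reached 1 TPM only in libraries with trametinib. The filter thus let them in through groups where they were high and left Smad6 and Bambi out, so nothing is read from these medians either. Rescaling the libraries moved the median of all genes from 0.105 to 0.005 with trametinib at 6 h, from 0.109 to -0.016 with the combination at 6 h and from 0.103 to -0.01 with the combination at 24 h, so differences in these 3 comparisons are to be read relative to that shift.

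**Figure D2:**
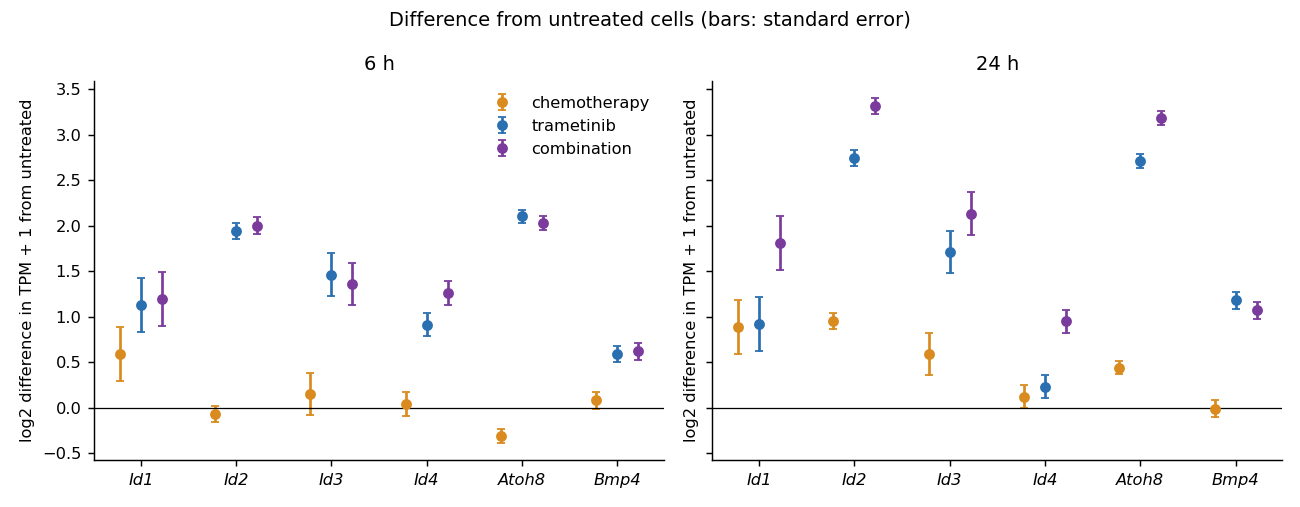
Difference of each treatment from untreated cells in log2(TPM + 1) (vertical axis) for the 6 genes in the fit, at 6 h (left) and 24 h (right), with bars of 1 standard error and a line at 0. At 6 h trametinib and combination points lie close together for each gene but Id4, and at 24 h the combination lies highest for Id1, Id2, Id3, Id4 and Atoh8 but not for Bmp4.

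Against chemotherapy alone, the combination stood higher by 2.07 ± 0.0892 for Id2, 1.21 ± 0.234 for Id3, 1.22 ± 0.128 for Id4, 2.34 ± 0.0754 for Atoh8 and 0.54 ± 0.0923 for Bmp4 at 6 h, and by 2.36, 1.54, 0.83, 2.74 and 1.08 with the same errors at 24 h. Its libraries lay wholly above those of chemotherapy for 6 of the 8 genes at 6 h (39.8% of tested genes) and for 7 at 24 h (33.8%), with Bambi wholly below (26.8%). Id1 overlapped at 6 h (0.61 ± 0.296) and not at 24 h (0.92 ± 0.296).

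Against trametinib alone, the combination differed less at 6 h than at 24 h for Id1, Id2, Id3, Id4 and Atoh8. At 6 h the combination minus trametinib was 0.06 for Id1, 0.07 for Id2, -0.11 for Id3, -0.06 for Atoh8 and 0.03 for Bmp4, each below 1 standard error, and 0.35 ± 0.128 for Id4, whose libraries overlapped. Smad6 lay wholly below trametinib alone at 6 h, as did 10.8% of tested genes. At 24 h it was 0.90 ± 0.296 for Id1, 0.57 ± 0.0892 for Id2, 0.42 ± 0.234 for Id3, 0.72 ± 0.128 for Id4 and 0.46 ± 0.0754 for Atoh8. The libraries of the 2 groups did not overlap for Id1, Id2, Id4 and Atoh8, where 35.7% of tested genes lay wholly above, and overlapped for Id3. Bmp4 differed by -0.10 ± 0.0923. Against the sum of the 2 single effects on the log2 scale, the combination at 24 h stood at 0.01 ± 0.418 for Id1, 0.03 ± 0.107 for Atoh8, -0.17 ± 0.331 for Id3, -0.39 ± 0.126 for Id2 and 0.60 ± 0.181 for Id4. Id4 lay above this sum and Id2 below it, while Id1 and Id3 were within 1 standard error of it. For Atoh8 the value depends on the pseudocount: with 0.1 its effects at 24 h were 1.78 for chemotherapy, 5.28 for trametinib and 5.80 for the combination, which is then below the sum of the single effects. The single and combined treatments share their untreated libraries, so these values are not independent of one another.

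The ID genes and Atoh8 stood lower in untreated cells at 24 h than at 6 h. The ratio of means, 24 h over 6 h, was 0.65 for Id1, 0.582 for Id2, 0.556 for Id3 and 0.101 for Atoh8, with no overlap between the libraries of the 2 times, while 35.5% of tested genes lay wholly lower. It was 0.532 for Id4, whose ranges overlapped, and 3.96 for Bmp4, which lay wholly higher as did 33.9% of tested genes. The treated levels did not all follow: Id2 with trametinib was 123 ± 17 TPM at 6 h and 128 ± 11.3 TPM at 24 h (SD, n = 3), with overlapping ranges, and Atoh8 was 5.78 ± 0.482 and 5.95 ± 0.541 TPM. The effect at 24 h minus that at 6 h was 0.81 ± 0.126 for Id2 and 0.62 ± 0.107 for Atoh8. Id3 with trametinib was lower at 24 h (106 ± 17.8 TPM) than at 6 h (158 ± 18.1 TPM), as was Id1 (19.4 ± 2.49 against 34.2 ± 4.10 TPM), and the effects of these 2 at 24 h minus those at 6 h were 0.25 ± 0.331 and -0.21 ± 0.418. Id4 with trametinib was 1.28 ± 0.597 TPM at 6 h and 0.289 ± 0.0404 TPM at 24 h. Between the times, the effect of chemotherapy differed for 45.1% of tested genes, that of trametinib for 38.2% and that of the combination for 49.7% (limma).

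The order of the 8 group means was not the same for each gene. For Id2 and Atoh8 the 4 groups with the MEK inhibitor held the 4 highest places, and combination cells at 24 h led, separate from the next group. Neighbouring groups among the other 3 overlapped for both. For Id3 the same 4 groups led but each overlapped its neighbour. For Id1 the neighbours from the first to the seventh place overlapped, and only untreated cells at 24 h stood separate at the bottom. For Bmp4 the trametinib and combination groups of 24 h led, at 2.51 ± 0.0808 and 2.28 ± 0.435 TPM, separate from the rest. By Pearson's r over the 8 group means of log2(TPM + 1), Id2 and Atoh8 ran closest together (r = 0.991, Spearman rho = 0.905), then Id2 and Id3 (0.951 and 0.738) and Id3 and Atoh8 (0.940 and 0.738), and Bmp4 and Id4 least (0.317 and 0.619). By rho the order was another: Id3 and Id4 were closest (0.952), and Bmp4 was least like Id1 and Id3 (0.548 each). With only 8 points, all drawn from the same 24 libraries, these are descriptions.

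Candidates were 9605 tested genes that reached a mean of 5 TPM in some group. The 8 genes described here, predicted or clone-named genes and pseudogenes were left out. By the same measure, the 3 genes most like each of the 6 were sought among these candidates. For Id2 they were Brd9 (r = 0.993, rho = 0.952), Syt13 (0.989 and 0.905) and Vegfd (0.988 and 0.952), and for Atoh8 they were Syt13 (0.994 and 0.929), Brd9 (0.993 and 0.905) and Ccn4 (0.989 and 0.952). Syt13 and Brd9 thus stood near both, and Id2 and Atoh8 themselves had an r of 0.991. For Id1 they were Atp6v0b (0.977 and 0.952), Trappc3 (0.975 and 0.881) and Calhm2 (0.974 and 0.976), and for Id3 Vps37c (0.992 and 0.976), Dmpk (0.990 and 0.976) and Mgst3 (0.988 and 0.976). For Id4 they were Mrgprf (0.985 and 0.976), Tppp3 (0.974 and 0.905) and Thbs3 (0.972 and 0.905), and for Bmp4 Hacd4 (0.999 and 1.0), Frzb (0.996 and 1.0) and Calml4 (0.994 and 0.976). Each r is over 8 group means, for the best 3 of 9605 genes. It takes no account of the size of a change. At 24 h Brd9 had a mean of 20.6 TPM in untreated cells and 32.3 TPM with the combination, while Atoh8 had 0.059 and 8.58 TPM.

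ID proteins act by binding E proteins, so their transcripts were summed and compared. Id1 to Id4 summed to 104 ± 14.7 TPM in untreated cells at 6 h, 123 ± 44.8 with chemotherapy, 317 ± 16.0 with trametinib and 314 ± 28.3 with the combination (SD, n = 3). The E protein genes Tcf3, Tcf4 and Tcf12 summed to 190 ± 8.61, 171 ± 30.7, 217 ± 7.88 and 192 ± 29.9 TPM in the same groups. At 24 h the ID sum was 59.9 ± 5.35, 104 ± 15.6, 254 ± 28.8 and 373 ± 59.3 TPM, against an E protein sum of 243 ± 10.2, 216 ± 21.8, 211 ± 7.11 and 226 ± 13.7 TPM. The ratio of ID to E protein transcripts was 0.545 ± 0.06 in untreated cells at 6 h, 0.701 ± 0.125 with chemotherapy, 1.46 ± 0.108 with trametinib and 1.65 ± 0.201 with the combination, and at 24 h it was 0.246 ± 0.0244, 0.482 ± 0.0445, 1.21 ± 0.157 and 1.64 ± 0.191. It was below 1 in all 12 libraries without the MEK inhibitor and above 1 in all 12 with it. Id2 supplied 30.4% of the ID sum in untreated cells at 6 h and 51.3% with the combination at 24 h. These are transcript shares and not amounts of protein.

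**Figure D3:**
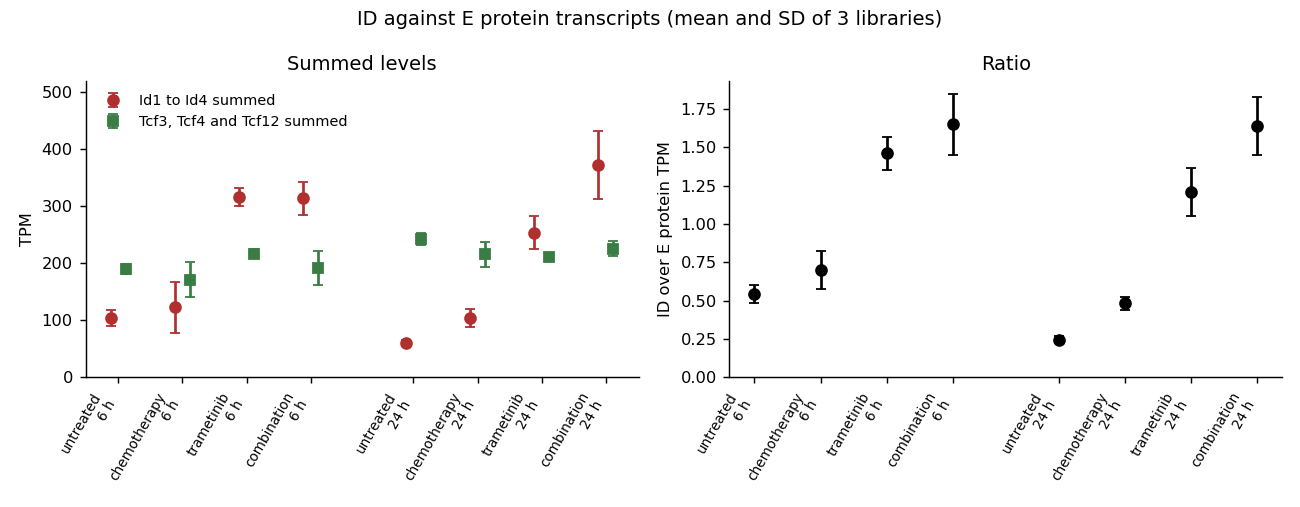
Left, summed TPM of Id1 to Id4 (circles) and of Tcf3, Tcf4 and Tcf12 (squares) in the 8 groups; right, the ratio of the 2 sums per library. Points are means and bars SD of 3 libraries; the ID sum varies from 59.9 to 373 TPM while the E protein sum stays between 171 and 243 TPM.

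The E protein genes Tcf3 (27.8 to 93.7 TPM), Tcf4 (39.4 to 95.6 TPM) and Tcf12 (53.4 to 123 TPM) were all tested. With trametinib at 6 h 0 of 3 passed (1, Tcf12, at an unadjusted p under 0.05, limma), and at 24 h Tcf12 fell by 0.31 (adjusted p = 0.00516, limma). Tcf4 fell with chemotherapy, by 0.52 at 6 h (adjusted p = 0.00166, limma) and 0.73 at 24 h (adjusted p = 1.25e-05, limma), and by 0.33 with the combination at 24 h (adjusted p = 0.0133, limma), the last not without untreated replicate 1 (adjusted p = 0.0556, limma). The fall of Tcf12 with chemotherapy at 6 h, 0.29, also ended without untreated replicate 2 or chemotherapy replicate 2 (adjusted p = 0.112 and 0.125, limma). Of 20 other helix-loop-helix genes listed, 4 entered the test: Twist1 (14.9 to 32.0 TPM), Twist2 (8.70 to 34.7 TPM), Bhlhe40 (2.25 to 8.77 TPM) and Bhlhe41 (3.64 to 12.4 TPM). Bhlhe40, a repressor also known as Dec1, rose by 0.46 with trametinib at 6 h (adjusted p = 0.00195, limma) and by 0.91 at 24 h (adjusted p = 1.26e-06, limma), and its paralogue Bhlhe41 fell by 0.56 with trametinib at 24 h (adjusted p = 0.00244, limma). With the combination at 24 h Bhlhe41 had a difference of 0.39, which lost its call without untreated replicate 1 or 2 or combination replicate 2 (adjusted p = 0.056, 0.0685 and 0.0839, limma) and under rescaling (0.28, adjusted p = 0.0841, limma). Twist1 fell by 0.42 with the combination at 24 h (adjusted p = 0.0042, limma). Its falls with chemotherapy (0.38) and trametinib (0.36) at 24 h ended without untreated replicate 3 (adjusted p = 0.0572 and 0.0823, limma), and the latter also without trametinib replicate 1 (0.0552). Atoh1 and Atoh7, the other atonal genes listed, were at 0 in all libraries.

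Secreted antagonists moved in both directions. Grem1 (gremlin 1), which binds BMP2 and BMP4, ranged over 19.2 to 61.6 TPM, beside Twsg1 at 24.8 to 55.3, Crim1 at 16.0 to 30.7, Fstl3 at 4.13 to 16.0, Fst at 0.539 to 6.16 and Dand5 at 1.2 to 3.69 TPM. It stood at 55.2, 58.7 and 60.7 TPM in untreated cells at 6 h, 19.2, 22.7 and 24.0 TPM with trametinib and 29.0, 26.2 and 30.4 TPM with the combination. Grem1 fell by 1.37 ± 0.0883 with trametinib (adjusted p = 2.18e-10, limma) and by 1.01 ± 0.0883 with the combination (adjusted p = 9.4e-09, limma) at 6 h. At 24 h it fell by 0.68 with trametinib (adjusted p = 1.77e-06, limma) and 0.51 with chemotherapy (adjusted p = 5.52e-05, limma), but with both together the difference was -0.16 (adjusted p = 0.128, limma). The combination then stood 1.04 ± 0.125 above the sum of the single effects (adjusted p = 4.29e-06, limma), a test that 16.2% of tested genes passed upward. Fst (follistatin) rose with chemotherapy, by 0.83 at 6 h (adjusted p = 9.08e-06, limma) and 0.93 at 24 h (adjusted p = 2.63e-07, limma), and fell by 1.02 with trametinib at 24 h (adjusted p = 6.54e-08, limma). With the combination at 6 h Fst was also called higher, at 4.69, 4.71 and 4.12 TPM against 1.41, 1.55 and 1.78 in untreated cells. That difference ran from 1.05 to 1.15 when a library was left out. With the combination at 24 h Fst had a difference of 0.29, whose call ended without untreated or combination replicate 1 (adjusted p = 0.0799 and 0.0849, limma) and under rescaling (0.20, adjusted p = 0.1, limma). Twsg1, which can both block and help BMPs, rose by 0.52 and 0.71 with trametinib and the combination at 6 h (adjusted p = 8.14e-07 and 9.46e-09, limma) and by 0.62 with chemotherapy at 24 h (adjusted p = 7.56e-08, limma). Its call with chemotherapy at 6 h, 0.18, ended without untreated replicate 1 or 2 or chemotherapy replicate 1 or 3 (adjusted p = 0.195, 0.0564, 0.177 and 0.0582, limma). Crim1, a membrane protein that binds BMPs, fell by 0.61 with chemotherapy and by 0.68 with the combination at 6 h (adjusted p = 1.3e-05 and 3.98e-07, limma). Noggin and chordin genes (Nog, Chrd) reached at most 0.0199 and 0.188 TPM.

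Other genes known to respond to BMPs moved in both directions. Of 13 listed, 4 entered the test, with 1 rise and 1 fall with trametinib at 6 h (median 0.02, against 0.105 over all tested genes, of which 35.9% rose and 18.9% fell) and 1 rise at 24 h (median -0.025, against 0.036, with 32.4% of all tested genes rising). Hes1, a target that BMP and Notch signals share, stood at 4.78, 4.0 and 5.6 TPM in untreated cells at 6 h and 2.29, 2.48 and 1.18 TPM with trametinib. Hes1 fell by 0.98 ± 0.158 with trametinib (adjusted p = 3e-05, limma) and by 1.29 ± 0.158 with the combination (adjusted p = 8.38e-07, limma) at 6 h. At 24 h it rose by 0.58 with chemotherapy (adjusted p = 0.00362, limma), while its call with trametinib, 0.42, ended without untreated replicate 1 or 3 or trametinib replicate 1 or 3 (adjusted p = 0.0561 to 0.102, limma) and with no filter (adjusted p = 0.0502, limma). Runx2, the osteoblast factor, rose by 0.38 with trametinib at 6 h (adjusted p = 0.000163, limma) and fell by 0.68 with chemotherapy at 24 h (adjusted p = 1.46e-07, limma). Junb rose by 1.53 ± 0.456 with chemotherapy at 24 h (adjusted p = 0.00731, limma), and Gata2 by 0.48 (adjusted p = 0.000667, limma). The homeobox targets Msx1, Msx2 and Dlx5 stayed at or below 0.173 TPM.

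Over the 7 lists together, 13 of 35 tested genes rose and 6 fell with trametinib at 6 h, beside 35.9% and 18.9% of all tested genes, and 15 rose and 8 fell at 24 h, beside 32.4% and 26.3%. With the combination 11 rose and 7 fell at 6 h (38.6% and 19.8% of all tested genes), and 14 rose and 4 fell at 24 h (39.6% and 23.8%). With chemotherapy 6 rose and 10 fell at 6 h (11.3% and 13.5%), and 11 rose and 7 fell at 24 h (34.9% and 24.3%). Bmp2, Acvrl1 and Smad9, which entered the test only through groups where they were high, are among the genes counted. With chemotherapy at 6 h the 6 rises became 2 without untreated replicate 1 or 2 or without chemotherapy replicate 1, and 3 without chemotherapy replicate 3, and the 10 falls became 5 without untreated replicate 2 or chemotherapy replicate 2. The 11 rises with the combination at 6 h became 7 without combination replicate 3. After rescaling the split was 10 up and 8 down with trametinib at 6 h, 8 up and 10 down with the combination at 6 h and 10 up and 9 down with the combination at 24 h, so the split in these comparisons depends on the scaling. Untreated cells alone had 10 rises and 9 falls from 6 h to 24 h, beside 29.4% and 31.4% of all tested genes.

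**Figure D4:**
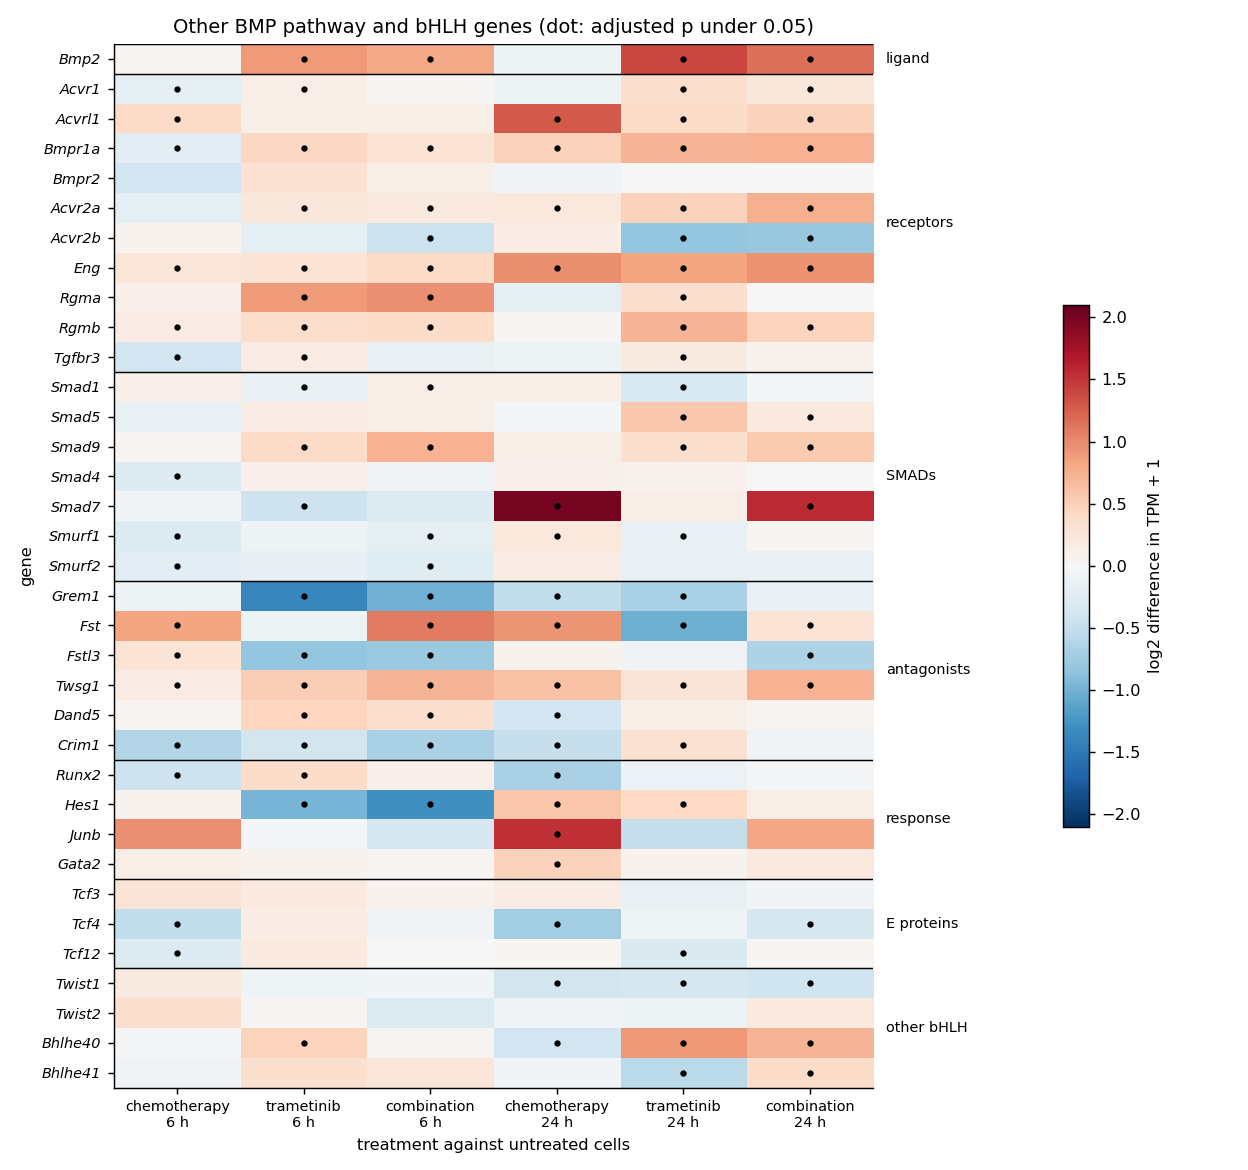
Difference from untreated cells in log2(TPM + 1) (colour; red higher, blue lower) of the 35 tested genes of the 7 lists (rows, grouped by role) in the 6 treatment comparisons (columns), with a dot where the adjusted p was under 0.05 in limma. Smad7 is strongest with chemotherapy and the combination at 24 h (2.01 and 1.57), Grem1 lowest with trametinib at 6 h (-1.37), and Bmp2 is higher in the 4 comparisons with trametinib.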

How the data were processed

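Libraries were stranded poly(A) mRNA, 3 per group. The authors deposited TPM per transcript. The submitters' processing notes name kallisto 0.45, bcl2fastq 2.17.1.14 and GRCm38, with no release named for the transcripts. The 8 genes and the gene lists were chosen with earlier results of these data known. TPM of 79662 of 82934 transcripts were summed over 28328 genes (GENCODE M21), and the other 3272 transcripts, 4.45% to 5.98% of a library's TPM, were left out. Hjv was matched as Hfe2. The series' design text names DESeq2, a count model, which TPM do not allow. Instead log2(TPM + 1) of the 12581 genes at 1 TPM or more in 3 or more libraries was fitted with limma 3.58.1 (R 4.3.3), 1 mean per group, moderated variance with a trend (16 residual degrees of freedom), two-sided p adjusted by Benjamini-Hochberg over these genes and called at 0.05. TPM keeps no depth, so no counting interval was possible. All 8 genes are named; of each list, up to 4 called genes with the smallest p against untreated cells are given with test values, and others by their levels. At each time, treatments were compared with untreated cells, and the combination with single treatments and their sum; further comparisons were 24 h against 6 h for each effect, and untreated cells across time. Alternatives were a pseudocount of 0.1, no filter, a mean of at least 5 TPM, rescaling by median ratios (factors of 0.927 to 1.12), a replicate block, each time alone, and leaving out each library. The fit was tested on simulated data.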

Additional observations from a re-analysis of the deposited data

Results flagged for a closer look

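Effects that differed between 6 h and 24 h by a test of the difference itself (limma, adjusted p under 0.05, n = 3 libraries per group) are given here as the log2 effect at 24 h minus that at 6 h. Smad7 had the largest, 2.08 with chemotherapy (adjusted p = 3.99e-08, limma), 1.86 with the combination (1.14e-07) and 0.57 with trametinib (0.0163). The last lost its call without untreated replicate 2 of 6 h, untreated replicate 3 of 24 h or trametinib replicate 1 of 24 h (adjusted p = 0.053, 0.0534 and 0.052, limma). Every value in this section takes in the change of untreated cells between the times. Untreated Smad7 fell from 8.63, 10.7 and 8.29 TPM at 6 h to 4.52, 4.02 and 3.21 at 24 h. With trametinib Smad7 stood at 5.78, 7.07 and 6.82 TPM at 6 h and 5.18, 3.66 and 4.45 at 24 h. Hes1 followed with 1.4 with trametinib (adjusted p = 6.36e-05, limma) and 1.43 with the combination (3.1e-05), its untreated level having fallen by 1.61 between the times. Among receptors, Eng differed by 0.71 with chemotherapy, 0.55 with trametinib and 0.55 with the combination, Acvrl1 by 0.88 with chemotherapy, Acvr2a by 0.42 with chemotherapy and 0.55 with the combination, and Rgmb by 0.34 with trametinib. Untreated Eng stood at 22.3, 24.1 and 24.1 TPM at 6 h and at 17.1, 17.4 and 18.1 TPM at 24 h. Bmp2 differed by 0.51 with trametinib and 0.37 with the combination, calls lost with a pseudocount of 0.1 (0.27 and 0.12), and Smad5 by 0.4 with trametinib. Acvrl1 and Bmp2 entered the test only through groups where they were high.

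Among antagonists, Grem1 differed by -0.42 with chemotherapy, 0.69 with trametinib and 0.85 with the combination. Fst differed by -0.92 with trametinib and -0.8 with the combination. Twsg1 differed by 0.44 with chemotherapy and -0.26 with trametinib, and Crim1 by 0.7 with trametinib and 0.61 with the combination. Runx2 differed by -0.52 with trametinib. In untreated cells Runx2 stood at 18.1, 19.0 and 19.8 TPM at 6 h and at 32.0, 29.9 and 30.2 TPM at 24 h. Of the helix-loop-helix genes, Tcf12 differed by 0.33 with chemotherapy and -0.52 with trametinib, Bhlhe40 by 0.44 with trametinib and 0.66 with the combination, Bhlhe41 by -0.89 with trametinib and Twist1 by -0.57 with chemotherapy. Of these, -0.26 for Twsg1 lost its call without untreated replicate 1 or trametinib replicate 2 or 3 of 6 h, or untreated replicate 1 or trametinib replicate 2 of 24 h (adjusted p of 0.0518 to 0.0871, limma). The call of 0.33 for Tcf12 was lost without untreated replicate 2 or 3 or chemotherapy replicate 2 of 6 h, or untreated replicate 2 or 3 or chemotherapy replicate 3 of 24 h (0.0532 to 0.111), and that of 0.44 for Bhlhe40 without untreated replicate 2 or trametinib replicate 2 or 3 of 6 h, or untreated replicate 1 or 3 or trametinib replicate 2 or 3 of 24 h (0.0503 to 0.0965).

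For Atoh8, every chemotherapy library lay below every untreated library at 6 h (-0.31) and above at 24 h (0.44); the difference between the times was not tested.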

How the results depend on the processing

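Of the called-gene counts for the 7 lists, 78 values under other settings stayed within 1.5 times the main count and 4 did not. With chemotherapy at 6 h the 6 rises became 2 in the fit on that time alone, and leaving out libraries gave 2 to 6 rises and 5 to 12 falls. With the combination at 6 h the 11 rises became 18 with no filter and 6 with a mean of at least 5 TPM. These settings also change how many of the listed genes are tested, so the counts are not out of the same total. When a library was left out the rises were 7 to 11. With the combination at 24 h the 4 falls became 9 after rescaling. Smad1, combination against chemotherapy at 6 h, went from 0.02 to -0.12 after rescaling (adjusted p = 0.0188, limma); the cause was not tested. With a pseudocount of 0.1 Atoh8 moved most among the 6 genes, from 2.71 to 5.28 with trametinib and from 3.18 to 5.80 with the combination at 24 h, while Id4 with trametinib and the combination gave 2.19 and 2.78 at 6 h and 0.97 and 2.63 at 24 h, and Bmp4 gave 1.80 and 1.85 and then 2.00 and 1.86. Rescaling took Id2 from 1.94 to 1.82 with trametinib at 6 h. Labels give replicate numbers. Libraries with the same number had a median r of deviations of -0.0442 over 18 pairs at 6 h and 0.0211 over 18 at 24 h. Single pairs ran from -0.317 to 0.208 at 6 h and from -0.358 to 0.335 at 24 h. Of 24 libraries, 10 correlated best with their own number. This check cannot tell whether libraries with the same number shared a culture or batch. With a replicate block, trametinib at 6 h gave 11 rises and 5 falls and chemotherapy at 6 h gave 4 and 8. Sequencing depth is unknown, so levels under 1 TPM have unknown precision.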
